A study of Mus musculus with 2 samples.

Results

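Heat shock proteins are molecular chaperones, and 10 of their genes were followed here across the cell types of inflamed mouse skin. The members were chosen by symbol and are 10 of the 31053 genes in the count table: the cytosolic HSP70 genes Hspa1a, Hspa1b and Hspa8, the HSP110 gene Hsph1, the HSP70 co-chaperone Dnajb1, the HSP90 genes Hsp90aa1 and Hsp90ab1, the small heat shock protein Hspb1, the endoplasmic reticulum HSP70 Hspa5 and the mitochondrial chaperonin Hspd1. They were measured as unique molecular identifiers (UMIs), each of which stands for 1 captured RNA molecule, in 2 droplet single-cell RNA libraries of back skin from female mice on a C57BL/6 background (the labels name both C57BL/6N and C57BL/6J). The WT library came from wild-type mice and the KO library from mice lacking Chrna5, a nicotinic acetylcholine receptor subunit. Both had been treated with imiquimod, which activates Toll-like receptors and inflames mouse skin in a way used to model psoriasis: 62.5 mg of 5% cream went on the shaved back on 6 days and tissue was collected on day 7, from mice 6 to 8 weeks old. Each experimental group had 5 mice, and pooling of mice into a library is not stated. A group that received the cream base is not analysed here. The KO line had been backcrossed to C57BL/6N. Minced skin was digested with collagenase at body temperature, and live cells were sorted by dye exclusion. With 1 library per genotype there was no test between genotypes, and every difference below is one between these 2 libraries.

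HSP70 proteins bind exposed hydrophobic stretches of unfolded proteins in a cycle of ATP hydrolysis that J-domain proteins such as Dnajb1 start and that HSP110 proteins such as Hsph1 reset by nucleotide exchange. HSP90 proteins act later, on near-native clients such as kinases and steroid receptors, and small heat shock proteins such as Hspb1 hold unfolded proteins without using ATP. The stress-inducible genes are switched on by heat shock factor 1, which binds heat shock elements made of alternating GAA and TTC units, while Hspa5 answers to endoplasmic reticulum stress.

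Promoter windows from 250 bases before to 50 bases after the start site were taken from a table of RefSeq promoters (build GRCm38.p6, the mm10 assembly), in which 7 of the 10 members matched, all but Hspa8, Hsp90aa1 and Hsp90ab1, with 2 windows each for Hsph1, Dnajb1 and Hspd1. They are shown because Hspa1a and Hspa1b, whose ratios between the libraries were among the highest of the members, have nearly the same window. Hspa1a and Hspa1b lie next to each other on chromosome 17, and their windows matched at 296 of 300 bases (98.7%). The stretch from 213 to 91 bases before the start site is printed for both on the minus strand (chr17:34972247-34972369 for Hspa1a and chr17:34959329-34959451 for Hspa1b), 5′ to 3′. The 8 capitals in a row mark the heat shock element of 2 units, and the 2 single capitals near the 5′ end mark the bases that differ between the genes there.
Hspa1a: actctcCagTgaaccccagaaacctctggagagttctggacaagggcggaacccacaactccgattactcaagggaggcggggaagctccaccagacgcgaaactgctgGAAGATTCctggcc
Hspa1b: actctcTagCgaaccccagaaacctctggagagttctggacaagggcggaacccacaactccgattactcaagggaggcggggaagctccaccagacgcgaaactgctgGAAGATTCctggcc

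The remaining members with a match are shown as the matched letters, in capitals, with a few bases to each side, because they differ in which element they hold. Hspb1 held 2 separate elements of 2 units upstream of its start (chr5:135887787-135887844, plus strand). Hspd1 held overlapping elements of 3 units in 1 of its windows (chr1:55088053-55088082, minus strand). Hsph1 held 1 element of 3 units shortly after its start, which is in both of its windows (chr5:149636287-149636308, minus strand). It also held a separate element of 2 units before its start in both windows, which is not printed. Hspa5 held an endoplasmic reticulum stress element and no heat shock element (chr2:34772020-34772048, plus strand).
Hspb1: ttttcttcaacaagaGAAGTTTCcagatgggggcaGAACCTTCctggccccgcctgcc
Hspd1: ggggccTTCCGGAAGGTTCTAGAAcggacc
Hsph1: gctgcagaTTCTGGAAAGTTCt
Hspa5: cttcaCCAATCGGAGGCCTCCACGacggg

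Searched on both strands, the 3-unit element (GAANNTTCNNGAA, or TTC, GAA and TTC at the same spacing) was found in 0.603% of 32851 windows of the same length over all genes, and the 2-unit element (GAANNTTC, or TTC before GAA), which lies inside every 3-unit match, in 15.1%. The endoplasmic reticulum stress element (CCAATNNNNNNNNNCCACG) was found in 0.119% of them. Of the 7 members with windows, 2 held a 3-unit match (Hsph1 and Hspd1) and 5 held a 2-unit match, while no match to these letters was found in the windows of Dnajb1. A match is a description of the letters and was not tied to binding in these data.

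**Figure D1:**
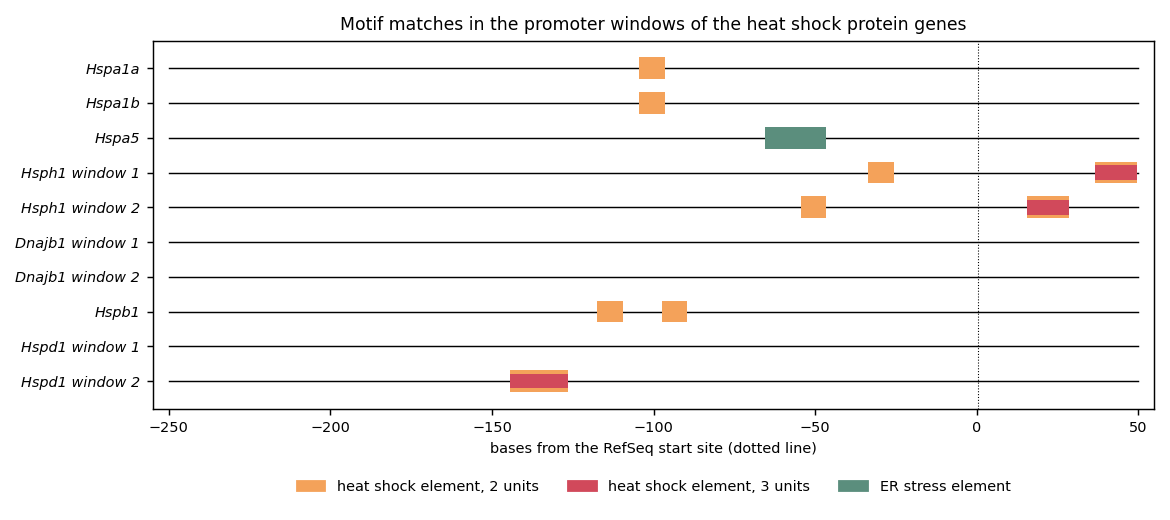
Motif matches in the RefSeq promoter windows of 7 heat shock protein genes, plotted as bases from the start site, which the dotted line marks. Hspa1a and Hspa1b carry 1 element of 2 units at the same place, Hspb1 carries 2, Hsph1 and 1 window of Hspd1 carry elements of 3 units, and Hspa5 carries the endoplasmic reticulum stress element.

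The WT library held 14557 barcodes and the KO library 10886, of which 13938 and 10233 were kept, with medians of 4603 and 6374 UMIs per cell, and 49 barcodes occurred in both libraries. Cells were assigned to classes by the summed level of marker genes, so each class is a range above a level and is named as like a cell type: near the level for the basal class, 504 WT and 453 KO cells lay at 0.8 to 1 times it. Among the 10 genes that led each class, S100a8 and S100a9, both on the neutrophil marker list, stood beside Krt1, Krt10 and Krtdap in suprabasal-like cells. S100a8 stood beside Krt5 and Krt14 in basal-like cells. Interferon-induced genes such as Rsad2 and Ifit1 stood beside Plvap in endothelial-like cells, and Rgs1, Trdc and Il2rb led the T-like cells. The compared classes were suprabasal-like keratinocytes (1461 WT and 473 KO cells), basal-like keratinocytes (3898 and 1687), fibroblast-like cells (2185 and 2420) and macrophage-like cells (773 and 675). Marker genes of the basal list summed to 13130 UMIs per 1000000 in WT and 11750 in KO suprabasal-like cells. In basal-like cells they summed to 12400 and 10250, so the basal list does not set these keratinocyte classes apart. The suprabasal list did, at 17270 and 20880 in suprabasal-like cells against 2657 and 2089 in basal-like cells. Whether these classes are separate layers of the skin was not tested. T-like cells (177 and 397) and 5 smaller classes with at least 50 cells in each library are described. The hair follicle class was not compared because its 10 leading genes held 2 markers of the suprabasal list and 1 of its own. No gate was passed by 4314 WT and 2819 KO cells. The targeted gene gave 12 UMIs in all kept WT cells and 6 in all kept KO cells, and 3′ tags check no genotype where the deleted exons are unknown.

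Levels are given in UPM, the UMIs of a gene per 1000000 UMIs of the class and library, with no division by gene length, because each captured molecule is counted once at its 3′ end. All intervals below are 95% intervals and cover counting error only. Summed over the 10 members, the lowest level in WT was that of macrophage-like cells (5491 UPM) and the highest that of pericyte-like cells (23240 UPM). In KO the sum ran from 7810 UPM in T-like cells to 28300 UPM in pericyte-like cells. Hsp90ab1, the constitutive HSP90, was the most abundant member in WT basal-like cells at 2967 UPM, and Hsph1 the least at 72.3 UPM.

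The class named pericyte-like (50 WT and 165 KO cells) was gated on a joint list of pericyte and smooth muscle markers. Tagln, Acta2, Myh11 and Rgs5, all on that list, led it, and these cell types were not separated. Pericyte-like cells were highest for 8 of the 10 members in WT. The exceptions were Hsp90aa1, highest in lymphatic-like cells, and Hspd1, highest in sebaceous-like cells. In KO, pericyte-like cells were highest for 5 members (Hspa1a, Dnajb1, Hsp90aa1, Hsp90ab1 and Hspb1) and lymphatic endothelial-like cells for 4 (Hspa1b, Hspa8, Hspa5 and Hsph1). The intervals of pericyte-like and lymphatic-like cells overlapped for Hspa5, Hsph1 and Hsp90aa1 in WT and for Hspa1b and Hsp90ab1 in KO, so the first place is not resolved for these. The range over classes was widest for Hspb1, 35.7-fold in WT and 48.2-fold in KO, and for Hspa1a, 23.3-fold and 46.3-fold. For Hsp90ab1 it was 3.19-fold in WT and 2.40-fold in KO, and for Hspa5 3.15-fold and 4.22-fold.

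**Figure D2:**
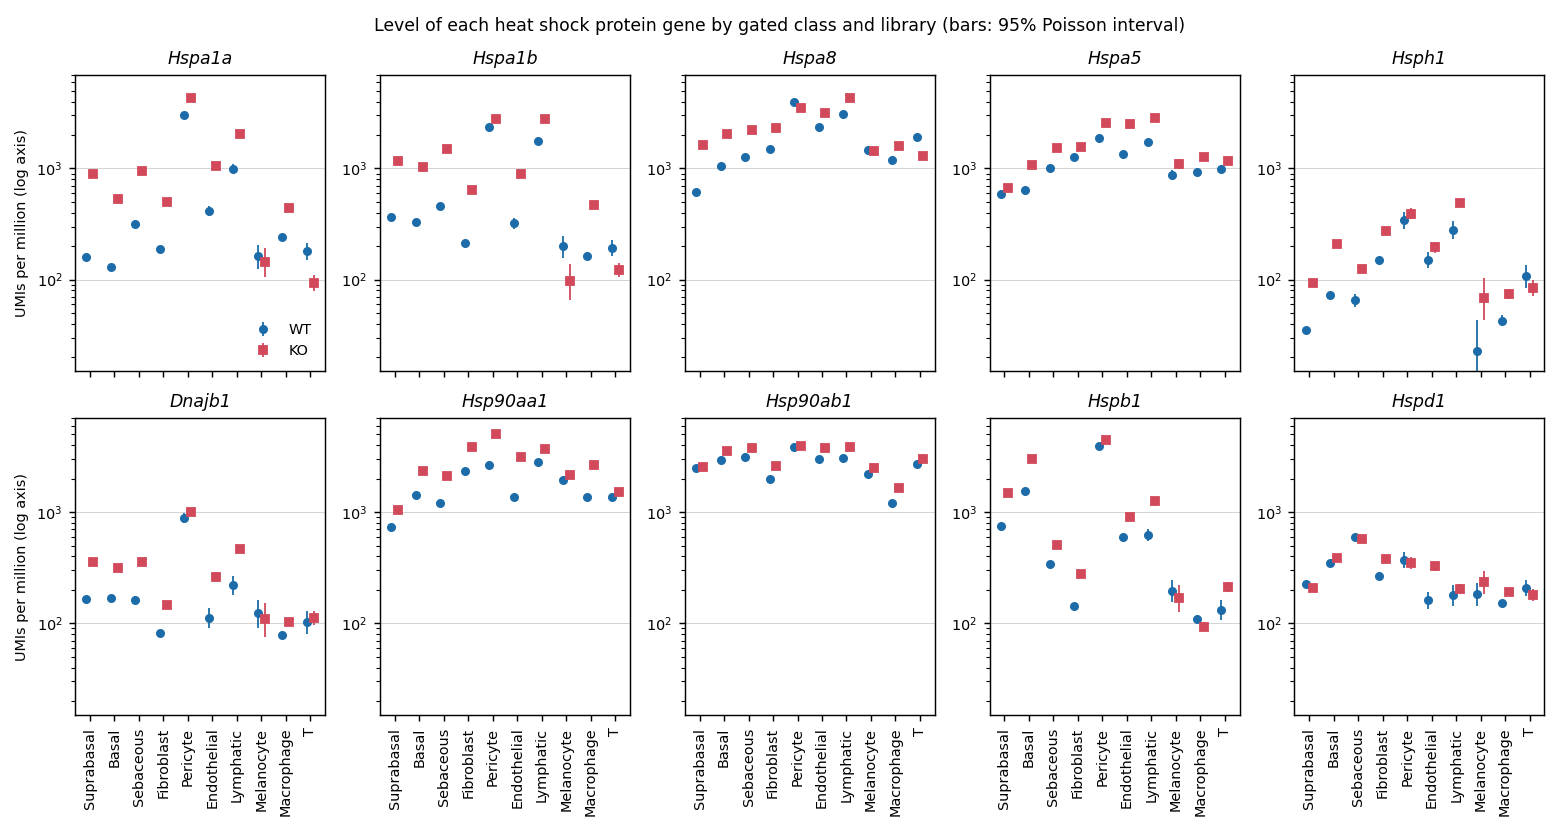
Levels of the 10 members in UPM (log axis) in each of 10 gated classes, with WT as circles and KO as squares and bars for the 95% Poisson interval. Hspb1 and Hspa1a span the widest range over classes in both libraries, while Hsp90ab1 stays between 1204 and 3918 UPM in both libraries.

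The inducible HSP70 genes Hspa1a and Hspa1b encode nearly identical cytosolic chaperones that many cells make in quantity only under stress. In basal-like cells Hspa1a stood at 129 UPM in WT and 529 in KO, and Hspa1b at 332.5 and 1025. In suprabasal-like cells Hspa1a stood at 159 and 896, and Hspa1b at 366 and 1171. Both genes were therefore several-fold higher in the KO library in the 2 keratinocyte classes. The ratio of KO over WT was 4.09 (3.98 to 4.2) for Hspa1a and 3.08 (3.03 to 3.14) for Hspa1b in basal-like cells, and 5.63 (5.44 to 5.82) and 3.20 (3.12 to 3.28) in suprabasal-like cells.

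In fibroblast-like and macrophage-like cells the ratios were smaller than in the 2 keratinocyte classes. Fibroblast-like cells held 190 UPM of Hspa1a in WT and 499 in KO, and 215 and 635 of Hspa1b, ratios of 2.62 (2.52 to 2.73) and 2.96 (2.85 to 3.07). Macrophage-like cells held 241 and 442 of Hspa1a and 162 and 468 of Hspa1b, ratios of 1.83 (1.72 to 1.95) and 2.89 (2.70 to 3.11). Over the 10 described classes, each of the 2 genes was higher in KO in 8. Hspa1b had its highest ratio in sebaceous-like cells, 3.28 (3.11 to 3.47), where that of Hspa1a was 3.01 (2.81 to 3.22). Pericyte-like cells, which had the highest WT levels of both, differed less: 3012 and 4299 UPM of Hspa1a, a ratio of 1.43 (1.33 to 1.53), and 2345 and 2758 of Hspa1b, a ratio of 1.18 (1.09 to 1.27).

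T-like and melanocyte-like cells did not follow the other classes. In T-like cells Hspa1a stood at 179 UPM in WT and 92.8 in KO, a ratio of 0.517 (0.405 to 0.662), and Hspa1b at 194 and 123, a ratio of 0.635 (0.507 to 0.796). In melanocyte-like cells Hspa1b stood at 199 and 96.7, a ratio of 0.485 (0.309 to 0.743), and Hspa1a at 162 and 143, a ratio of 0.888 (0.594 to 1.32). These sums came from few cells. The 3 cells with most Hspa1a and Hspa1b UMIs held 56.9% of those UMIs in WT T-like cells and 29.4% in KO, and 55.2% and 32.5% in melanocyte-like cells. Without 3 such cells in each library, a setting chosen after the data were seen, the summed level of both genes was 165 and 154 UPM in T-like cells, a ratio of 0.934 (0.744 to 1.18), and 170 and 166 in melanocyte-like cells, a ratio of 0.980 (0.666 to 1.44). For single genes in T-like cells that setting gave a log2 ratio of -0.48 for Hspa1a and 0.18 for Hspa1b, and a gate of doubled marker level gave -1.03 and -0.05. In suprabasal-like, basal-like, fibroblast-like and macrophage-like cells, the summed ratio of the 2 genes without 3 such cells stayed at 3.78, 3.23, 2.93 and 2.39.

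The share of cells with at least 1 UMI of either gene was read after each cell was thinned to 600 UMIs, because depth differed: median depth was 6620.5 UMIs in WT and 13348 in KO basal-like cells. After thinning it was 26.6% (25.2 to 28.0) of WT and 50.5% (48.1 to 52.9) of KO basal-like cells, against 83.1% and 98.1% unthinned. It was 11.0% (9.75 to 12.4) of WT and 24.5% (22.8 to 26.2) of KO fibroblast-like cells, against 42.9% and 67.6% unthinned. In macrophage-like cells it was 11.3% (9.11 to 13.7) and 25.04% (21.8 to 28.5), against 42.8% and 64.1% unthinned. In T-like cells, with median depths of 3160 and 3437 UMIs, it was 7.34% (3.97 to 12.2) in WT and 11.1% (8.17 to 14.6) in KO, so that the intervals overlapped and the KO share was not the lower one. No gated class is known to lack these genes, so no class gave a background share for them.

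Within a class, cells differed widely. In KO basal-like cells of at least 2000 UMIs, the 10th percentile, median and 90th percentile of the summed Hspa1a and Hspa1b level were 2.09, 9.50 and 50.8 UMIs per 10000, and the highest cell stood at 298. In WT basal-like cells the same points were 0, 3.48 and 13.9, with a highest cell of 173. All of these points were higher in KO in this class. In fibroblast-like cells 56.8% of WT and 32.3% of KO cells of that depth had no UMI of either gene, and the 10% of cells with most held 83.55% of these UMIs in WT and 72.2% in KO. In basal-like cells the highest 10% held 34.5% in WT and 41.0% in KO.

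**Figure D3:**
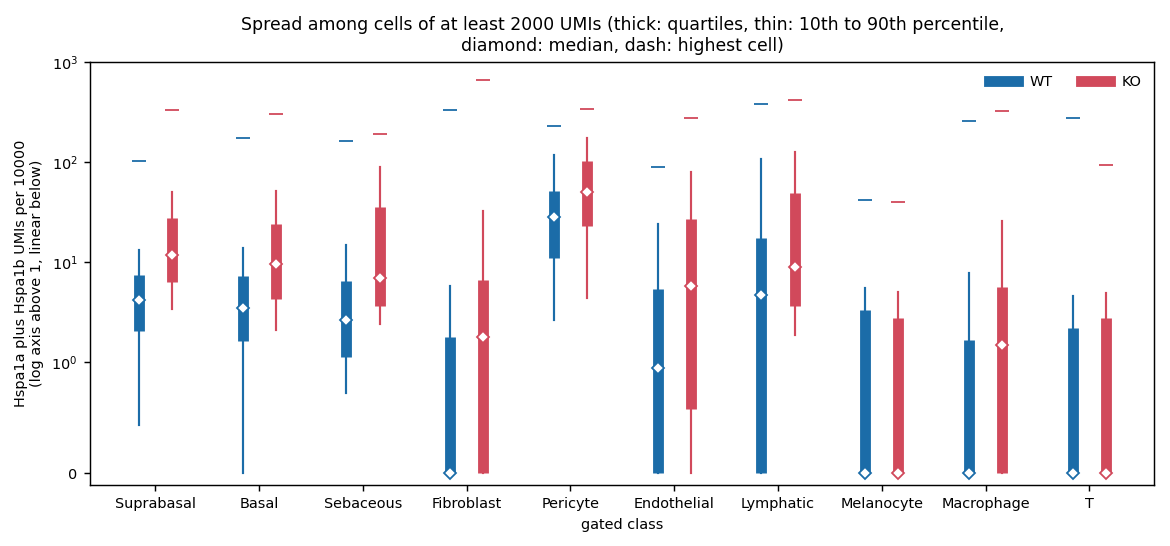
Summed Hspa1a and Hspa1b UMIs per 10000 in single cells of at least 2000 UMIs, by gated class, with WT and KO side by side; thick bars span the quartiles, thin bars the 10th to 90th percentile, diamonds mark the median and dashes the highest cell. The KO median of basal-like cells is 9.50 against 3.48 in WT, while the medians of T-like and melanocyte-like cells are 0 in both libraries.

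The 2 genes share almost all of their promoter window, yet their balance differed between classes and libraries. Hspa1b gave 2.57 UMIs per UMI of Hspa1a in WT basal-like cells (2.50 to 2.64) and 1.94 in KO (1.90 to 1.97). In pericyte-like cells the balance lay the other way, at 0.779 (0.711 to 0.852) in WT and 0.642 (0.607 to 0.678) in KO. In macrophage-like cells it was 0.671 (0.623 to 0.722) in WT and 1.06 (0.999 to 1.13) in KO. No 90-base stretch of the last 600 bases of the longest Hspa1a transcript occurs in a transcript of Hspa1b, so exact tags from that end can be told apart. Over its whole length 49.3% of its 90-base stretches do occur there. How reads from further upstream were assigned was not tested. Gm20481, on the other strand, overlaps Hspa1a.

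Hspa8, the constitutive cytosolic HSP70, was abundant in every class. It stood at 617 UPM in WT and 1629 in KO suprabasal-like cells, 1052 and 2062 in basal-like cells, 1501 and 2334 in fibroblast-like cells, and 1202 and 1608 in macrophage-like cells. The ratio was 2.64 (2.59 to 2.70) in suprabasal-like, 1.96 (1.94 to 1.98) in basal-like, 1.56 (1.53 to 1.58) in fibroblast-like and 1.34 (1.30 to 1.38) in macrophage-like cells. In T-like cells it was 1919 in WT and 1287 in KO, a ratio of 0.671 (0.626 to 0.719), and in pericyte-like cells 3977 and 3491, a ratio of 0.878 (0.823 to 0.936). Hspa8 lies 14.2 Mb from Chrna5 on chromosome 9. For each UMI of Hspa1b there were 6.99 of Hspa8 in WT fibroblast-like cells and 3.68 in KO, and 3.16 and 2.01 in basal-like cells.

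Hsph1, the HSP110 exchange factor, was scarce but differed strongly. It stood at 35.6 UPM in WT and 92.6 in KO suprabasal-like cells, at 72.3 and 207 in basal-like cells, at 151 and 274 in fibroblast-like cells and at 42.8 and 73.9 in macrophage-like cells. Its ratios were 2.61 (2.39 to 2.84), 2.87 (2.76 to 2.98), 1.81 (1.73 to 1.90) and 1.73 (1.48 to 2.02), so it was higher in KO in each of the 4. Averaging over cells in place of summing UMIs lowered its log2 ratio in suprabasal-like cells from 1.38 to 0.77. In T-like cells it stood at 108 and 84.6, a ratio of 0.787 with an interval (0.589 to 1.06) that held 1.

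Dnajb1, a J-domain protein that hands clients to HSP70, stood at 166 UPM in WT and 353 in KO suprabasal-like cells, and at 171 and 311 in basal-like cells. In fibroblast-like cells it stood at 81.8 and 146, and in macrophage-like cells at 78.2 and 102.5. The ratio was 2.12 (2.04 to 2.21) in suprabasal-like, 1.825 (1.775 to 1.877) in basal-like and 1.78 (1.67 to 1.90) in fibroblast-like cells, and 1.31 (1.16 to 1.48) in macrophage-like cells, which is under 1.5-fold. Its highest ratio over the 10 classes was 2.36 (1.88 to 2.975), in endothelial-like cells. A gate of doubled marker level raised its log2 ratio in basal-like cells from 0.87 to 1.40.

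The 2 cytosolic HSP90 genes behaved differently from each other. Hsp90aa1, the stress-responsive one, stood at 731 UPM in WT and 1049 in KO suprabasal-like cells, 1436 and 2358 in basal-like cells, 2365 and 3829 in fibroblast-like cells and 1362 and 2679 in macrophage-like cells. Its ratio was 1.44 (1.40 to 1.47), 1.64 (1.63 to 1.66), 1.62 (1.60 to 1.64) and 1.97 (1.92 to 2.02) in that order. Of the 4 classes, macrophage-like cells gave the highest ratio of Hsp90aa1. Hsp90ab1 was at 2471 and 2526, 2967 and 3543, 2000 and 2615, and 1204 and 1634 UPM in the same classes. It was higher in KO in all 10 described classes, yet by less than 1.5-fold in each, from 1.02 (0.956 to 1.09) in pericyte-like to 1.36 (1.32 to 1.40) in macrophage-like cells. In suprabasal-like cells its log2 ratio of 0.03 was -0.03 on a median-ratio scale and -0.01 with the 50 most abundant genes left out of the total.

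Which HSP90 gene was the more abundant differed between classes and, in pericyte-like cells, between the libraries. Hsp90ab1 gave 3.38 UMIs per UMI of Hsp90aa1 in WT suprabasal-like cells and 2.07 in basal-like cells. In fibroblast-like and macrophage-like cells Hsp90aa1 was the more abundant, with 0.846 and 0.884 UMIs of Hsp90ab1 per UMI of it in WT. In KO the 4 values were 2.41, 1.503, 0.683 and 0.610. The T-like cells held about 2 UMIs of Hsp90ab1 per UMI of Hsp90aa1 in both libraries, at 2.00 (1.85 to 2.17) in WT and 2.02 (1.92 to 2.12) in KO. In endothelial-like cells the value was 2.19 in WT and 1.19 in KO. In pericyte-like cells it was 1.44 (1.32 to 1.56) in WT and 0.784 (0.747 to 0.823) in KO, so the more abundant gene changed.

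Hspb1, the small heat shock protein HSP27, was highest in pericyte-like cells, followed by the keratinocyte classes and the vessel classes. It stood at 756 UPM in WT and 1482 in KO suprabasal-like cells, 1538 and 3009 in basal-like cells and 3915 and 4500 in pericyte-like cells, against 143 and 277 in fibroblast-like cells. Lymphatic-like cells held 626 and 1260.0 and endothelial-like cells 594 and 898. Its ratio was close to 2 in the first 2 of these, at 1.96 (1.92 to 2.00) and 1.96 (1.94 to 1.97), and in fibroblast-like cells at 1.93 (1.84 to 2.03), but 1.15 (1.08 to 1.22) in pericyte-like cells. Basal-like cells that passed a gate of doubled marker level had a log2 ratio of 1.70 in place of 0.97. In macrophage-like cells Hspb1 stood at 110 and 93.5 UPM, a ratio of 0.851 (0.757 to 0.956), which is 7.14% of the basal-like level in WT and 3.11% in KO. Krt14, a keratin on the basal marker list, was highest in suprabasal-like cells, at 6575 UPM in WT and 5217 in KO. In macrophage-like cells Krt14 stood at 4.76% and 2.37% of its basal-like level, and the part of RNA from other cells in the Hspb1 level was not tested. In T-like cells Hspb1 stood at 132 and 213 UPM, a ratio of 1.615 (1.28 to 2.06), which is 8.58% and 7.08% of the basal-like level, next to 7.34% and 4.75% for Krt14, and here too that part was not tested. Fibroblast-like cells held Hspb1 at 9.30% of the basal-like level in WT and 9.20% in KO. Krt14 stood there at 5.12% and 3.09%, and the part of RNA from other cells was again not tested. The other 9 members in macrophage-like cells stood at 32.9% or more of their basal-like level in both libraries.

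Of the chaperones of other compartments, Hspa5 was the one that passed 1.5-fold in a compared class. Hspa5, the endoplasmic reticulum HSP70 known as BiP, stood at 592 UPM in WT and 671 in KO suprabasal-like cells, 638 and 1082 in basal-like cells, 1263 and 1544 in fibroblast-like cells and 936 and 1267 in macrophage-like cells. Its ratio was 1.13 (1.10 to 1.17), 1.70 (1.67 to 1.72), 1.22 (1.2 to 1.245) and 1.35 (1.31 to 1.40), so only in basal-like cells of these 4 did it pass 1.5-fold. It was higher in KO in all 10 described classes, with its highest ratio of 1.87 (1.75 to 2.00) in endothelial-like cells, and in suprabasal-like cells its log2 ratio of 0.18 was -0.11 with the doubled gate. Hspd1, the mitochondrial chaperonin HSP60, stood at 224 and 207, 347 and 389, 267 and 379.5, and 152 and 191 UPM in the 4 compared classes. Its ratios were 0.922 (0.879 to 0.966), 1.12 (1.10 to 1.14), 1.42 (1.37 to 1.48) and 1.26 (1.15 to 1.38), and its highest ratio over the 10 classes was 2.03 (1.68 to 2.47), in endothelial-like cells. The value in basal-like cells changed sign with the doubled gate, from a log2 ratio of 0.16 to -0.33. Hspe1, its partner chaperonin on the other strand, overlaps Hspd1.

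**Figure D4:**
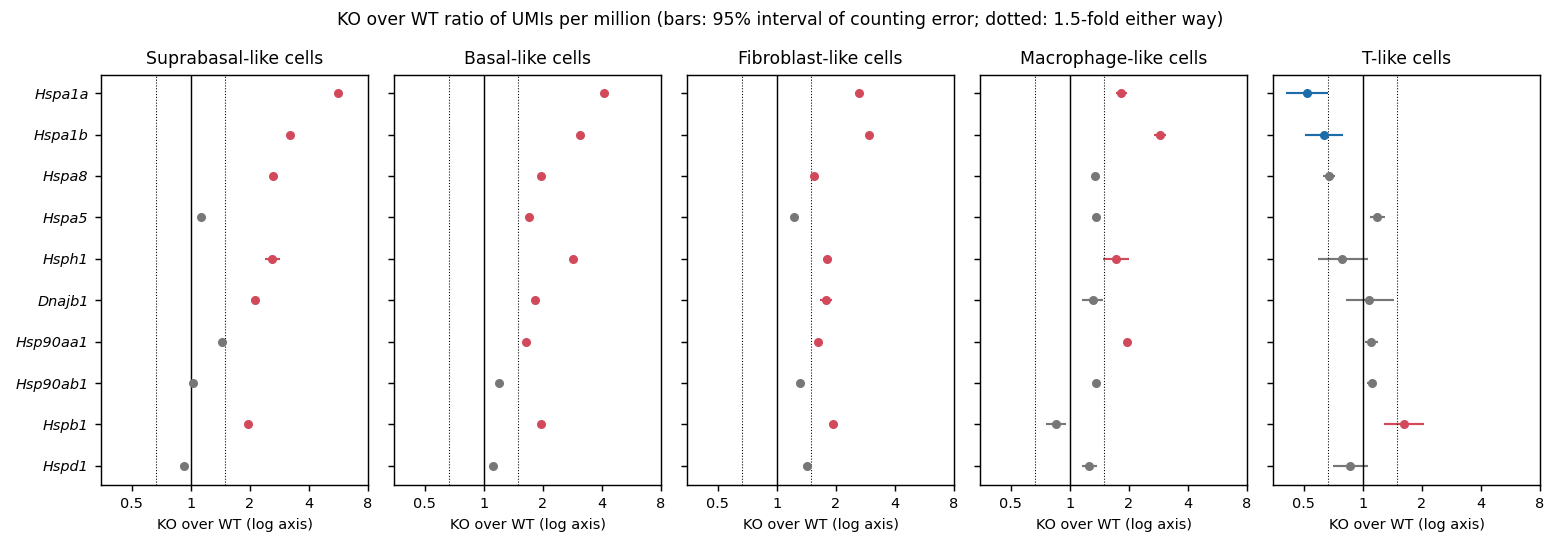
Ratio of KO over WT in UPM (log axis) for each member in the 4 compared classes and in T-like cells, with 95% intervals of counting error and dotted lines at 1.5-fold either way. Red points are at least 1.5-fold higher with an interval that leaves out 1 and blue points at least 1.5-fold lower, and Hspa1a runs from 5.63 in suprabasal-like to 0.517 in T-like cells.

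Counted together, 6 of the 10 members were at least 1.5-fold higher in KO with an interval leaving out 1 in suprabasal-like cells, where the same holds for 10.9% of all 12728 genes with at least 20 UMIs. In basal-like cells it was 8 of 10, against 11.8% of 14302 genes. In fibroblast-like cells it was 7 of 10, against 13.0% of 12792 genes, and in macrophage-like cells 4 of 10, against 10.3% of 10445 genes. No member was 1.5-fold lower in any of the 4, where 10.0%, 12.3%, 7.22% and 8.86% of the genes were, in the same order. Hspa1a, Hspa1b and Hsph1 passed in each of the 4 classes, and Hsp90ab1 and Hspd1 in none of them. In T-like cells 1 of 10 was higher (Hspb1), against 8.97% of 7448 genes, and 2 of 10 were lower (Hspa1a and Hspa1b), against 3.81%, and none was lower without the 3 cells with most Hspa1a and Hspa1b UMIs in each library.

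The median log2 ratio of the members was 1.03 in suprabasal-like, 0.92 in basal-like, 0.76 in fibroblast-like and 0.44 in macrophage-like cells. The medians of all genes tested in these classes were 0.02, 0.02, 0.09 and 0.03. In T-like cells the members' median was -0.05 and that of all genes 0.15. The members are abundant genes, and among genes of at least 50 UPM the shares at least 1.5-fold higher were 7.89%, 10.4%, 8.81% and 10.2% in the 4 compared classes.

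The 2 libraries also differed in depth, mitochondrial share and immediate early genes, which are transcription factors and signalling genes that cells switch on within minutes. The median mitochondrial share was 2.19% in WT and 2.91% in KO basal-like cells, and 2.05% and 2.38% in macrophage-like cells. The 20 immediate early genes summed to 9710 UPM in WT and 17440 in KO basal-like cells, with 13 of 20 at least 1.5-fold higher, against 11.8% of all genes. In suprabasal-like cells they summed to 9187 and 16950, with 13 of 20 higher against 10.9%, and in fibroblast-like cells to 12610 and 18710, with 11 of 20 against 13.0%. In macrophage-like cells they summed to 10310 and 12630, with 5 of 20 against 10.3%. In T-like cells they summed to 7428 and 8584, with 3 of 20 higher against 8.97% and 1 lower against 3.81%. The part of the early genes in the members' difference was not tested. Sums over marker lists of other cell types differed too. The 10 genes of the neutrophil list summed to 26610 UPM in WT and 1898 in KO suprabasal-like cells, with none at 0 in both. They summed to 7057 and 355 in basal-like, 615 and 19.6 in fibroblast-like and 884 and 73.5 in macrophage-like cells, where Ly6g alone was at 0. In T-like cells they summed to 1106 and 26.9, with Ly6g, Retnlg, Csf3r, Cxcr2 and Mmp8 at 0. The list holds S100a8 and S100a9, which were both among the leading genes of suprabasal-like cells, and S100a8 also among those of basal-like cells. These sums therefore do not stand for neutrophils alone, and the source of this RNA was not tested. Other lists differed as well: erythroid markers stood at 432 and 9.29 UPM and sebaceous markers at 1093 and 540.0 in fibroblast-like cells, and Langerhans and dendritic markers at 4272 and 6395 in macrophage-like cells. The part of these in the members' values was not tested.

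Cells of like depth, mitochondrial share or early gene level could be set side by side. For Hspa1a and Hspa1b together, KO was higher in each of 5 depth ranges in basal-like cells, by 2.52 to 4.63 times, and in each of 4 ranges of mitochondrial share, by 3.01 to 3.92 times. In suprabasal-like cells the depth ranges gave 2.12 to 5.74 and the mitochondrial ranges 3.56 to 5.72, in fibroblast-like cells 1.72 to 6.28 and 1.88 to 2.95, and in macrophage-like cells 1.36 to 4.21 and 1.78 to 3.345. The lowest depth ratios in fibroblast-like and macrophage-like cells were those of cells with 12000 to 24000 UMIs.

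With each class divided into 4 equal groups of cells by early gene level, the 2 genes stood higher in KO in all 4 groups of basal-like cells, by 1.63 to 3.00 times, of suprabasal-like cells, by 1.72 to 3.31 times, and of fibroblast-like cells, by 1.39 to 6.51 times. Over the whole class their summed ratios were 3.36, 3.94 and 2.80 in that order. Every group of the 2 keratinocyte classes lay below its class ratio, while those of fibroblast-like cells lay on both sides. Hspa5 stood at 1.11 to 1.46 times in the 4 groups of basal-like cells, under 1.5-fold in each although it was 1.70 over the whole class, and at 0.888 to 1.06 in suprabasal-like cells, with no interval above 1. The sum of all members stood at 1.27 to 1.497 times in the groups of basal-like cells, against 1.67 over the whole class, and Hspa8 at 1.39 to 1.78 times. For Hspa1a and Hspa1b in WT basal-like cells the level climbed from 287 UPM in the lowest group to 1392 in the highest, and in KO from 468 to 3334. In macrophage-like cells the highest group held 1611 UPM in WT and 1619 in KO, a ratio of 1.005 (0.944 to 1.07), while the group below held 189 and 1043, a ratio of 5.52 (4.89 to 6.24). The interval of the highest group held 1, and it was made up of 132 WT and 230 KO cells. In T-like cells the lowest and the highest group were lower in KO, at ratios of 0.416 (0.264 to 0.647) and 0.281 (0.221 to 0.357), and the middle ones were 1.495 (0.905 to 2.595) and 1.71 (1.01 to 3.065).

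**Figure D5:**
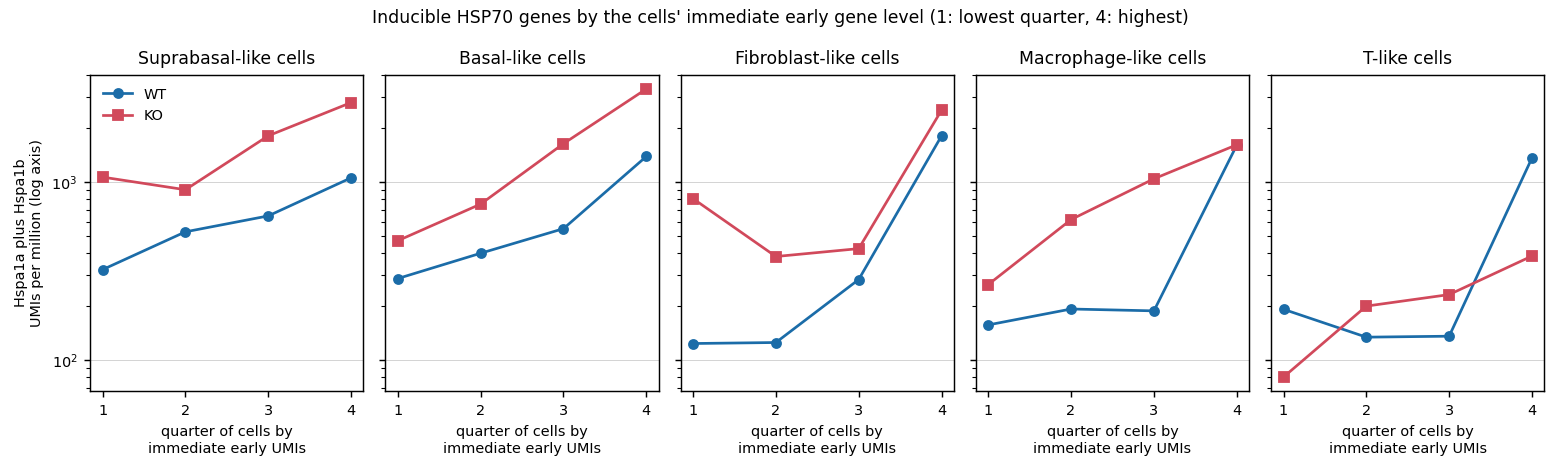
Summed Hspa1a and Hspa1b in UPM (log axis) in the cells of each group of immediate early gene level, with group limits set over both libraries of a class, in WT (circles) and KO (squares). KO lies above WT in every group of both keratinocyte classes and of fibroblast-like cells, and the values meet in the highest group of macrophage-like cells, at 1611 and 1619 UPM.

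The other members could be compared between the 10% of cells with the highest Hspa1a and Hspa1b level and the rest of the same class and library, cells that share a library and a digestion but not a depth. In basal-like cells the median depth was 6246 UMIs in the highest 10% and 8766 in the rest in WT, and 7069.5 and 15091.5 in KO, and the part of depth in the values below was not tested. In WT basal-like cells the highest 10% held 259.0 UPM of Hsph1 against 60.8 in the rest, 614 of Dnajb1 against 145, and 5812 of Hspb1 against 1293, ratios of 4.26 (3.94 to 4.60), 4.24 (4.03 to 4.46) and 4.495 (4.42 to 4.57). Hspa8 was 3.24 times and Hsp90aa1 2.04 times higher there, Hspa5 1.84 times, Hsp90ab1 1.11 times and Hspd1 1.06 times (0.995 to 1.12). In KO basal-like cells the order was similar, from Hspb1 at 5.06 times and Hsph1 at 3.89 times to Hspd1 at 1.29 times. The early gene Fos was 8.62 times higher among those of WT basal-like cells and 4.91 times in that of KO. In KO macrophage-like cells Hspb1 was an exception, at 106 UPM in the highest 10% and 91.0 in the rest, a ratio of 1.17 (0.833 to 1.60), whereas Hsph1 stood at 366 against 46.5, a ratio of 7.87 (6.33 to 9.78).

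Over 16 pools of class and library with at least 100 cells each, the members were compared by Pearson correlations of log2(UPM + 10) for pools that share libraries and differ in depth. The lymphatic-like, endothelial-like, pericyte-like and Schwann-like classes reached 100 cells in KO only, so genotype and cell type are mixed in these correlations. The pools also include the hair follicle class (420 WT and 705 KO cells), which was not compared above. Hspb1 stood there at 2003 UPM in WT and 4260 in KO, and its part in the correlations was not tested. Hspa1a was most like Hspa1b among the members (r = 0.93), Hspa8 most like Hsph1 (0.92), Dnajb1 most like Hspa1b (0.91) and Hspa5 most like Hsp90aa1 (0.89). The lowest values were those of Hspb1 with Hsp90aa1 (0.07) and with Hspa5 (0.09). Outside the members, among 5591 genes, those most like Hspa1b were Gadd45b (0.94), Midn (0.90), Irf1 (0.89), Atf3 (0.88) and Junb (0.87). Those most like Hspa5 were Dnajb9 (0.92), Irgm1 (0.92), Crtc2 (0.915), Hipk1 (0.91) and Map3k3 (0.91). Dnajb9 encodes an endoplasmic reticulum co-chaperone of Hspa5.

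The remaining chaperone genes were read against the shares over all genes in these classes, 11.8% higher and 12.3% lower in basal-like and 13.0% and 7.22% in fibroblast-like cells, and several of the lists lay near them. Of the genes listed here as heat shock factors and regulators, with at least 20 UMIs, 0 of 7 in basal-like and 0 of 5 in fibroblast-like cells passed 1.5-fold either way. The most abundant gene on this list was Chic2, and nothing in these data ties it to heat shock regulation. Chic2 stood at 183 and 207 UPM in basal-like cells, a ratio of 1.13 (1.10 to 1.17). Hsbp1, which binds heat shock factor, had the lowest ratio there, 0.8365 (0.8025 to 0.8718). Of the other HSP70 and HSP110 genes, 1 of 8 was higher in basal-like cells (Hspa2, 18.8 and 46.3 UPM, a ratio of 2.46) and 3 of 8 in fibroblast-like cells, while the mitochondrial Hspa9 was at 1.135 (1.105 to 1.167) and 1.19 (1.16 to 1.23). Of the other J-domain co-chaperones, 2 of 15 were higher in each of these classes: Dnajb4 had the highest ratio in both, 1.79 (1.71 to 1.87) and 1.66 (1.57 to 1.74), and the abundant Dnaja1 stood at 648.5 and 968 in basal-like cells, a ratio of 1.49 (1.47 to 1.51).

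Of the HSP90 paralogues and co-chaperones, 0 of 14 were higher and 1 was lower in basal-like cells, the mitochondrial Trap1 at 26.1 and 14.5 UPM, a ratio of 0.554 (0.499 to 0.615). In fibroblast-like cells 1 of 14 was higher, Ahsa1, the activator of HSP90 ATPase, at 1.60 (1.44 to 1.78), and 1 lower, the endoplasmic reticulum paralogue Hsp90b1, at 383 and 250, a ratio of 0.653 (0.628 to 0.679). Of the nucleotide exchange factors, 1 of 10 was higher in basal-like cells, Bag3, which links HSP70 to autophagy, at 82.8 and 136.5 UPM, a ratio of 1.65 (1.58 to 1.72), and 0 of 10 in fibroblast-like cells. Of the other small heat shock proteins, 2 of 5 were higher and 1 lower in basal-like cells, with Hspb8 at 48.3 and 129 UPM, a ratio of 2.67 (2.54 to 2.80). In fibroblast-like cells 1 of 5 was higher, Cryab, at 38.3 and 93.1, a ratio of 2.43 (2.22 to 2.67), and 1 lower, Hspb2.

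Of the chaperonins and mitochondrial chaperones, 0 of 12 were higher and 1 lower in basal-like cells, the protease subunit Clpp at 29.8 and 14.8 UPM, a ratio of 0.497 (0.4485 to 0.55), and 1 of 12 was higher in fibroblast-like cells, Hspe1 at 219.9 and 372.5, a ratio of 1.69 (1.63 to 1.76). Of 20 endoplasmic reticulum stress genes, 3 were higher and 2 lower in basal-like cells, and 1 higher and 4 lower in fibroblast-like cells, Hsp90b1 again among the 4. Dnajb9 had the highest ratio in both, 1.93 (1.86 to 2.00) and 1.73 (1.66 to 1.81), and Sdf2l1, a luminal co-chaperone, the lowest, 0.446 (0.359 to 0.55) and 0.412 (0.239 to 0.687). The median log2 ratios of these lists in basal-like cells ran from -0.31 for the other small heat shock proteins to 0.28 for the other HSP70 and HSP110 genes, against 0.92 for the members and 0.92 for the immediate early genes. With at least 100 UMIs asked for, these ends of the range became 0.33, without the 1 lower gene, and 0.18. These lists were chosen with earlier results in view.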

How the data were processed

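Per the file headers, the deposited matrices hold whole-number UMI counts, not normalized, for 1 WT and 1 KO library. The submitters' processing notes name Cell Ranger 3.0.2, Seurat 3.0 and mm10, and the header of the matrices names software 3.1.0. The lowest barcode had 500 UMIs, and the libraries held 147260653 (WT) and 123839924 (KO) UMIs.

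Barcodes under 200 genes or over 10% mitochondrial UMIs were removed. Cells of at least 1000 UMIs entered 1 of 15 classes by summed UMIs per 10000 and the number of detected genes of a marker list, and those passing gates of 2 lineages (211 WT, 165 KO) were left out. The gate levels were set after the data were seen. Scrublet (scanpy 1.11.5, expected share 8%) marked 0 WT and 67 KO cells (0.655%), so most doublets may remain, and an alternative removed the 1623 WT and 891 KO cells of highest score. Classes with at least 200 cells in each library were compared, and those with at least 50 described, where no other type's markers outnumbered their own among the 10 leading genes.

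UMIs were summed per class and library with scipy 1.17.1. Ratios of KO over WT have exact 95% intervals conditional on the summed count, levels exact Poisson intervals and shares exact Clopper-Pearson intervals, all of counting error only. The rule for higher or lower asked for a 1.5-fold ratio whose interval left out 1, in genes with 20 UMIs or more. The interval and the call were run on simulated counts drawn with Poisson error alone. That is the error the interval assumes, so the run says nothing of the spread among cells or mice. Shares of cells were read after thinning to 600 UMIs.

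The members, the gene lists and the marker lists were chosen with earlier results of these data known. All 10 members are named in each compared class. From each other list the rule takes the gene of highest level and those of highest and lowest ratio in the 2 compared classes with most cells, of which not all are printed, and the 5 genes most like Hspa1b and Hspa5. Gene positions come from GENCODE vM21 (mm10), and promoter windows from RefSeq (GRCm38.p6). Alternatives changed the scale, the mitochondrial limit, doublets, the averaging, the depth, the gate, the fold, the minimum count, the thinning and the motif.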

Additional observations from a re-analysis of the deposited data

Results flagged for a closer look

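Hspa1a in T-like cells had a ratio of KO over WT of 0.517, opposite to the 8 of 10 described classes in which it was higher. The same holds for Hspa1b in T-like cells, at 0.635, and in melanocyte-like cells, at 0.485. The difference between classes was not tested, and the values of the T-like and melanocyte-like cells rest on few cells, as given above. The barcodes over the mitochondrial limit, 616 in WT and 641 in KO, which entered no comparison, held 4867 UPM of the 10 members in WT and 9182 in KO, against 7903 and 13560 in kept cells. In these barcodes Hspa1a stood at 1.26 times its level in kept cells in WT and 1.28 times in KO, and Hspb1 at 0.290 and 0.415 times.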

How the results depend on the processing

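Over 9 alternatives, 440 of 450 log2 ratios of single members in the 4 compared classes and T-like cells kept their sign, with shifts from -0.61 to 0.84. The median-ratio scale and the total without the 50 most abundant genes shifted all genes of a class by at most 0.1 downward on the log2 scale. A member that passed the 1.5-fold rule changed sign once: Hspa1b in T-like cells was at 0.18 on the log2 scale when 3 cells with most Hspa1a and Hspa1b UMIs were set aside in each library, which was chosen after seeing the data, and 0 members were then lower in T-like cells. Averaging over cells and the doubled gate each left 1 member lower in T-like cells. With a 2-fold rule, Hspa1a, Hspa1b, Hspa8, Hsph1 and Dnajb1 were higher in suprabasal-like cells. By that rule 3 members were higher in basal-like, 2 in fibroblast-like and 1 in macrophage-like cells, and 0 were lower in T-like cells. Dropping the minimum of 20 UMIs (raising it to 100 was run for the other lists only), the other mitochondrial limits, the doublet scores, the depth of at least 2000 UMIs and both scales left these counts within 1.5 times. With 2-unit elements counted, 5 members held a heat shock element in place of 2. No paired analysis was possible because each genotype is 1 library. T-like and melanocyte-like cells held 260 and 143 UMIs of Hspa1a and Hspa1b in WT, of which 3 cells held 56.9% and 55.2%.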
